A study of Mus musculus with 8 samples.

Results

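The CCN genes and the genes of the YAP pathway were examined in cardiac mesenchymal stromal cells (cMSCs) of young and aged mice. The 10 genes were the CCN genes Cyr61, Ctgf, Nov, Wisp1 and Wisp2, the transcriptional cofactors Yap1 and Wwtr1, their DNA-binding partner Tead1, and the Hippo pathway genes Lats2 and Amotl2. They were chosen by gene symbol, through all 16 probes that carry their names on the arrays, and all 10 were among the 20211 genes tested. None of the 10 passed the test between aged and young cMSCs at an adjusted p under 0.05. The CCN genes had the larger differences, from −0.39 for Nov to 0.63 for Wisp2 on the log2 scale, and Ctgf had the lowest adjusted p of the 10, at 0.0691. Yap1, Wwtr1, Tead1 and Lats2 differed by at most 0.07 at their brightest probes. Among 22 YAP and TAZ target genes, Ankrd1 and Foxf2 passed, both higher in aged cMSCs, as were 2.36% of all genes tested.

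cMSCs are fibroblast-like cells of the heart, and here they were sorted from C57Bl/6 male mice as cells with Sca-1 and PDGFRα and without CD31 and CD45. RNA came from 4 pools of young mice (5 months) and 4 pools of aged mice (20 months), with no treatment in either group. Each pool held 3 mice per the series' design, although the label code of aged pool 4 can be read as 2 mice. The study's methods name a pair of mouse lines without saying which gave these pools. They are C57Bl/6JRj mice and C57BL/6 mice that carry a GFP reporter in Cx3cr1 as heterozygotes. Each pool was hybridized to 1 Agilent mouse expression array with 1 colour, and pools carry the numbers 2 to 5 (young) and 1 to 4 (aged) of their labels.

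CCN proteins are secreted into the extracellular matrix, where they bind integrins and proteoglycans and modulate growth factors such as TGF-β. YAP and TAZ (the product of Wwtr1) are cofactors that enter the nucleus when the Hippo kinases are inactive, for instance in spread cells on a stiff matrix, and bind TEAD factors at their target genes. Cyr61 and Ctgf are the most used readouts of that activity in fibroblasts, and Lats2 and Amotl2 are targets that also restrain YAP.

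TEAD factors recognize the letters GGAATG, read as CATTCC on the opposite strand. The 250 bases before the annotated start were taken from RefSeq on GRCm38.p6 for the 5 genes that matched by symbol, Cyr61, Yap1, Wwtr1, Lats2 and Amotl2, while Ctgf, Nov, Wisp1, Wisp2 and Tead1 were not matched. These letters stood on either strand in 4 of the 5, and in none of the windows of Lats2, against 12.6% of 32851 such windows over all genes. Members and target genes are counted here as genes, some with a pair of windows, while that share counts windows, so the units differ. They also stood in the window of Ankrd1, at a pair of sites, and not in that of Foxf2. Of the 22 target genes, 15 had a window and 6 of these held the letters. A CArG box, the motif of serum response factor, was in the window of none of the members or target genes, against 1.47% of all windows. The stretches around the TEAD letters are shown 5′ to 3′ on the strand of the gene, with the 6 letters in capitals, for the members that hold them and for Ankrd1, the target gene with the largest difference. The motif starts 103 bases before the start of Cyr61, 65 before that of Amotl2, 141 before that of Yap1, 136 or 170 before the annotated starts of Wwtr1, and 210 before that of Ankrd1 at its distal site. A match of letters is a description of the sequence and does not show binding.
Cyr61, chr3:145650056-145650115, minus strand: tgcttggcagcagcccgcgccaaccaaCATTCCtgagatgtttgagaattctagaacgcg
Amotl2, chr9:102717712-102717771, plus strand: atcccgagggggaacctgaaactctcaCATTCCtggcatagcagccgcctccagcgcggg
Yap1, chr9:8004705-8004764, minus strand: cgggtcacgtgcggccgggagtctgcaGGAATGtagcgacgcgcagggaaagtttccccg
Wwtr1, chr3:57576014-57576073, minus strand: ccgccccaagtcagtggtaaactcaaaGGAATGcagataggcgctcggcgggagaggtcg
Ankrd1 distal, chr19:36120022-36120081, minus strand: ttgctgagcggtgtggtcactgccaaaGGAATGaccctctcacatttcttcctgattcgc
Ankrd1 proximal, chr19:36119935-36119994, minus strand: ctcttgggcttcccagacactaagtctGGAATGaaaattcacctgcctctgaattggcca

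Levels are given as normalized log2 signal, the log2 of a probe's background-subtracted intensity minus that of its array's upper quartile (the 75th percentile), so that 0 is the level of this quartile. The quartile lay at intensities of 479 to 816 on arrays of young pools and 509 to 793 for aged pools, and between 57.8% and 63.4% of an array's spots exceeded background clearly by the scanner software's flag, called well above background here. The arrays lay on 1 slide in 2 rows, row 1 with young pools 3 and 5 and aged pools 1 and 4, and row 2 with the other pools. Probes have different brightness, so levels are compared between pools and not between genes. Of the 16 probes, 15 were well above background on all 8 arrays. Differences are aged minus young, with the 95% interval and p of limma across all genes, and p values were adjusted by the Benjamini-Hochberg method over the 20211 genes. At that threshold 2.36% of all genes were higher in aged cMSCs and 0.792% were lower. With 4 pools against 4, the precision is limited by the number of arrays, and the smallest two-sided exact permutation p is 0.0286.

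Ly6a, which encodes Sca-1, and Pdgfra, the genes of the 2 antigens the cells were sorted for, were well above background on all 8 arrays. Probes of Pecam1 and Ptprc, the genes of CD31 and CD45, were also well above background on all 8 arrays, with differences of 0.02 and 0.07. Neutrophil genes moved with age. The summed linear signal of the 4 neutrophil markers tested (of 6) was 1.26 to 1.88 times the upper quartile in young pools. In aged pools it was 2.91 to 9.65, highest in aged pool 4. S100a9, Ly6g and Camp rose, while Ngp and Ltf did not pass the filter on dim probes. S100a9 was well above background on 3 young and 4 aged arrays, so it passed the filter through aged pools only, and it is part of that sum. For 8 of 9 macrophage and leukocyte markers the sum was 6.01 to 9.61 in young and 8.18 to 12.1 in aged pools, with Cd14 the 1 gene that rose. For 9 of 10 cardiomyocyte markers the sum was 9.82 to 12.0 in young and 5.71 to 9.69 in aged pools, and Tnni3 and Pln fell. Pln was well above background on 4 young and 2 aged arrays, so it passed the filter through young pools only. Of the 11 cMSC and fibroblast markers Thy1 fell, and Ly6a differed by 0.67 with an adjusted p of 0.0519. The part of these shifts in the differences below was not tested, and in such sorted bulk RNA fewer cells of a type and less RNA per cell cannot be told apart.

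Ctgf, a matricellular protein induced by TGF-β and by YAP, had the clearest difference among the CCN genes. Its probe, at chr10:24318281-24318340 on mm9, measured a normalized log2 signal of 6.38, 6.13, 6.18 and 6.11 in young pools 2, 3, 4 and 5. In aged pools 1, 2, 3 and 4 it measured 6.77, 6.82, 6.45 and 6.56. Every aged pool lay above every young pool, with aged pool 3 and young pool 2 nearest to each other. The mean was 6.20 ± 0.12 in young and 6.65 ± 0.18 in aged cMSCs (SD, n = 4 pools each), a difference of 0.45 ± 0.11 (SE) or 1.37-fold, with a 95% interval of 1.15 to 1.63. Its unadjusted p in limma was 0.0028, its adjusted p 0.0691, and its exact permutation p 0.0286, the smallest the design allows. The difference was 0.55 in slide row 1 and 0.36 in slide row 2. Of the alternative settings 1, limma's trend and robust options together, took Ctgf past the threshold, with an adjusted p of 0.0254.

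Cyr61, the other CCN gene that serves as an early target of YAP, differed less, and 1 aged pool carried much of its difference. Its probe lies at chr3:145310187-145310246 on mm9. Normalized log2 signals were 4.80, 4.87, 4.81 and 4.44 in young pools 2, 3, 4 and 5 and 4.92, 4.89, 4.88 and 5.49 in aged pools 1, 2, 3 and 4. The groups did not overlap, but young pool 3 and aged pool 3 nearly touched, while aged pool 4 stood apart above all others and young pool 5 below. The means were 4.73 ± 0.20 and 5.05 ± 0.30 (SD, n = 4 each), a difference of 0.31 ± 0.16 (SE) with a limma adjusted p of 0.454. It was 0.55 in slide row 1, which holds aged pool 4 and young pool 5, and 0.08 in slide row 2. Without aged pool 4 it was 0.17, and without young pool 5 it was 0.22.

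**Figure D1:**
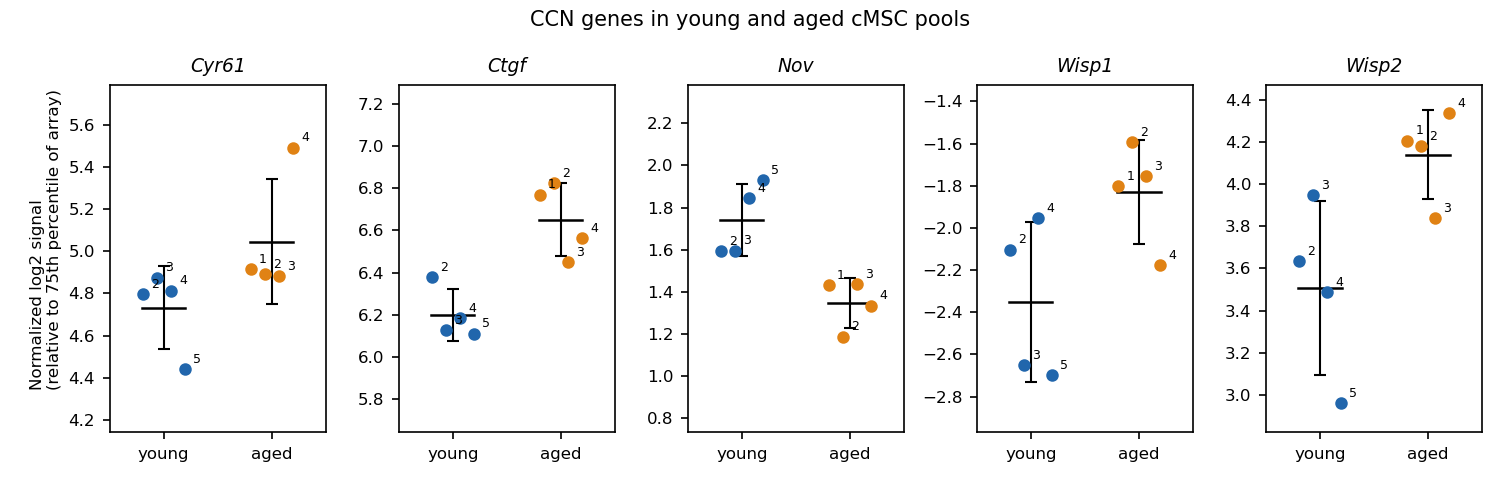
Normalized log2 signal (y axis, relative to each array's upper quartile) of the 5 CCN genes in each young (blue) and aged (orange) pool, with pool numbers, group means (horizontal lines) and SD (bars, n = 4); all panels span the same range of log2 units. The aged pools of Ctgf and Cyr61 lie above the young pools and those of Nov below, aged pool 4 stands apart for Cyr61 at 5.49, and the groups of Wisp1 and Wisp2 overlap.

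Nov, a CCN protein with antiproliferative actions, was the 1 CCN gene with a lower mean in aged cMSCs. Its probe, at chr15:54585236-54585295 on mm9, measured normalized log2 signals of 1.59, 1.60, 1.84 and 1.93 in young pools 2, 3, 4 and 5. In aged pools 1, 2, 3 and 4 it measured 1.43, 1.19, 1.44 and 1.33. Every aged pool lay below every young pool. The means were 1.74 ± 0.17 and 1.35 ± 0.12 (SD, n = 4 each), a difference of −0.39 ± 0.11 (SE), or 0.761 times the young level with a 95% interval of 0.643 to 0.901. The limma p was 0.00552 before and 0.101 after adjustment, and the exact permutation p was 0.0286. The slide rows gave much the same value, −0.38 in row 1 and −0.41 in row 2.

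Wisp1 and Wisp2 were first described as genes induced by Wnt signalling, and Wisp2 lacks the C-terminal domain of the other CCN proteins. Wisp2, measured at chr2:163658717-163658776 on mm9, had the largest difference of the 10 genes. Its normalized log2 signals were 3.63, 3.95, 3.49 and 2.96 in young pools 2, 3, 4 and 5 and 4.21, 4.18, 3.84 and 4.34 in aged pools 1, 2, 3 and 4. Aged pool 3 lay below young pool 3, and young pool 5 was the lowest. The difference was 0.63 ± 0.20 (SE), 1.55-fold with a 95% interval of 1.12 to 2.14, with a limma adjusted p of 0.172. It was 0.82 in slide row 1 and 0.45 in slide row 2, and 0.45 without young pool 5.

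Wisp1 had 2 probes. The probe at chr15:66751555-66751612 on mm9 was well above background on all 8 arrays and measured −2.10, −2.65, −1.95 and −2.70 in young pools 2, 3, 4 and 5. In aged pools 1, 2, 3 and 4 it measured −1.80, −1.59, −1.75 and −2.18. Aged pools 1, 2 and 3 lay above all young pools, while aged pool 4 fell among them. The difference was 0.52 ± 0.20 (SE), 1.44-fold with a 95% interval of 1.05 to 1.97, with a limma adjusted p of 0.265. The other probe of Wisp1 and the probe of Wisp3, the remaining CCN gene, were not well above background on any of the 8 arrays, so no difference is given for them.

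**Figure D2:**
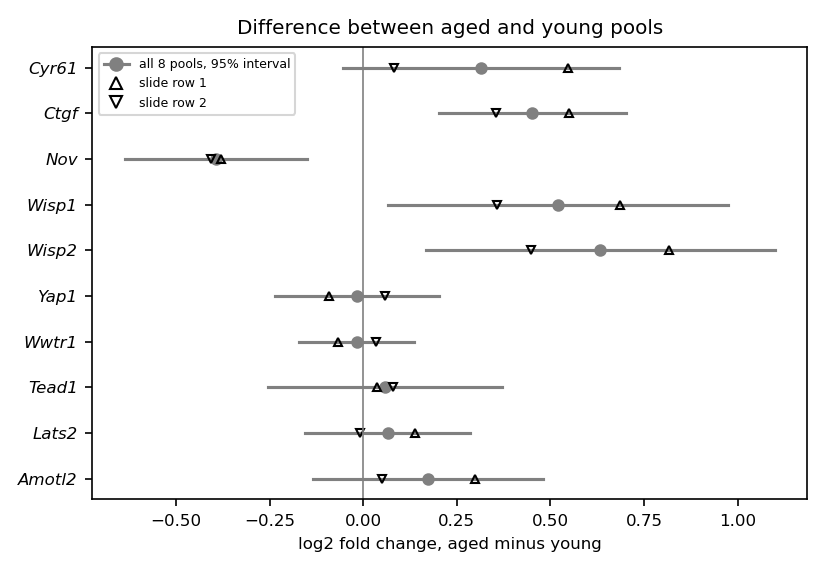
Log2 fold change, aged minus young (x axis), of each of the 10 genes, with points for all 8 pools, lines for the 95% interval of limma, and triangles for the difference within each slide row (up, row 1; down, row 2). The intervals of Ctgf, Nov, Wisp1 and Wisp2 leave out 0 before adjustment, and those of the other 6 genes include it.

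The cofactors themselves had no difference past the spread between pools. Yap1, measured at chr9:7932025-7932084 on mm9, had normalized log2 signals of 4.02, 4.01, 4.16 and 4.22 in young pools 2, 3, 4 and 5 and 4.13, 4.24, 4.05 and 3.91 in aged pools 1, 2, 3 and 4. The groups overlapped throughout, and the difference of −0.02 had a 95% interval of −0.23 to 0.20. The direction of Yap1 is not settled, since it turned to 0.041 without aged pool 4. A second Yap1 probe, at chr9:7997029-7997088, differed by −0.05.

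Wwtr1 encodes TAZ and varied little over the 8 pools. Its probe at chr3:57262551-57262610 on mm9 measured 4.94, 5.05, 4.91 and 4.94 in young pools 2, 3, 4 and 5 and 4.94, 4.96, 4.96 and 4.92 in aged pools 1, 2, 3 and 4. The SD over the aged pools was 0.02, and young pool 3 stood above the other young pools. The difference of −0.02 had a 95% interval of −0.17 to 0.14, and was 0.014 without young pool 3. In fold terms these data allow a level of Wwtr1 in aged cMSCs between 0.888 and 1.1 times that in young.

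Tead1, a DNA-binding partner of both cofactors, had 3 probes. The brightest, at chr7:120049844-120049903 on mm9, measured 1.67, 1.35, 1.68 and 2.05 in young pools 2, 3, 4 and 5 and 1.83, 1.76, 1.75 and 1.65 in aged pools 1, 2, 3 and 4. The aged pools all lay within the range of the young pools, and the difference was 0.06 with a 95% interval of −0.25 to 0.37. Its direction turned to −0.052 without young pool 3. The other 2 probes differed by 0.45 and 0.07, with adjusted p values of 0.461 and 0.865 over 30824 probes tested one by one with limma, so the probes disagreed in size. At the probe with 0.45, aged pool 4 measured −1.08 against −2.19 to −1.69 in the other aged pools.

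Lats2, the kinase that phosphorylates YAP and TAZ, also had 3 probes. The brightest, at chr14:58308807-58308866 on mm9, measured 1.77, 1.82, 2.02 and 1.63 in young pools 2, 3, 4 and 5 and 1.77, 1.90, 1.87 and 1.96 in aged pools 1, 2, 3 and 4. The groups overlapped, and the difference was 0.07 with a 95% interval of −0.15 to 0.29. It was 0.0067 without young pool 5 and 0.13 without young pool 4. The other probes gave 0.05 and 0.07.

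Amotl2, an angiomotin that holds YAP at cell junctions, had its highest value in the same aged pool as Cyr61. Its probe at chr9:102635025-102635084 on mm9 measured 1.41, 1.5, 1.39 and 1.36 in young pools 2, 3, 4 and 5 and 1.46, 1.39, 1.52 and 2.0 in aged pools 1, 2, 3 and 4. The first 3 aged pools lay close to the young pools, and aged pool 4 stood above all of them. The difference was 0.17 with a 95% interval of −0.13 to 0.48 and a limma adjusted p of 0.687. Without aged pool 4 it was 0.037.

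**Figure D3:**
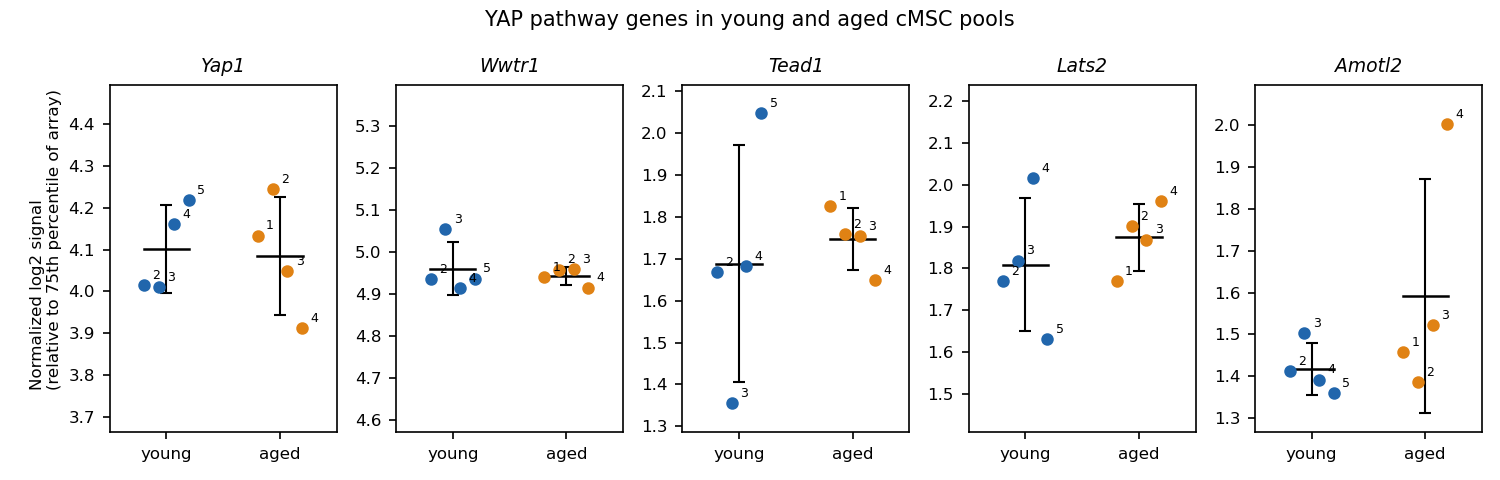
Normalized log2 signal (y axis, relative to each array's upper quartile) of the cofactors, Tead1, Lats2 and Amotl2 in each young (blue) and aged (orange) pool, with pool numbers, group means (horizontal lines) and SD (bars, n = 4); all panels span the same range of log2 units. The groups overlap for all 5 genes, and aged pool 4 is the highest pool for Amotl2 at 2.0.

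Counted together, 7 of the 10 genes had a higher and 3 a lower mean in aged cMSCs, and 0 passed the adjusted threshold. At an unadjusted limma p under 0.05 there were 4, Ctgf, Nov, Wisp1 and Wisp2, all of them CCN genes, where 14.2% of all genes tested lay under that value. The young and aged pools did not overlap for 3 of the 10, Ctgf, Cyr61 and Nov, against 10.7% of all genes. The median difference of the 10 was 0.12, and that of all genes tested was 0.0014. By the methods' t-test 3 of the 10 had an unadjusted p under 0.05 and 0 had an adjusted p under it.

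Aged pool 4, which stood apart for Cyr61 and Amotl2, was also the highest of the 8 pools for 17 of the 20 immediate early genes tested, such as Fos, Egr1 and Atf3, which respond to serum, stress and tissue dissociation within minutes. None of these 20 genes passed between aged and young cMSCs, and their median difference was 0.05. The 2 with the largest differences were Ier3, with 0.50 and an adjusted p of 0.538, and Myc, with 0.37 and an adjusted p of 0.642. In Ier3 aged pool 4 measured 3.27 against 1.97 to 2.45 in the other aged pools, and in Myc 3.23 against 2.0 to 2.56. Among the YAP and TAZ target genes, aged pool 4 was the highest pool for 7 of 22, Cyr61 and Amotl2 included. Igfbp3 and Gadd45a, picked out after their values were seen, are examples, with 6.05 against 5.27 to 5.43 and 2.69 against 2.09 to 2.29 in the other aged pools. How often aged pool 4 was the highest pool over all genes was not counted, so these counts have no background. The part of this pool's immediate early genes in the values of Cyr61 was not tested.

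The YAP and TAZ target genes were a list of 22 that includes Ctgf, Cyr61, Amotl2 and Lats2, and all 22 were tested. Of these, 2 rose and 0 fell, where 2.36% of all genes tested rose and 0.792% fell. The mean in aged cMSCs was higher for 17 and lower for 5. The median difference was 0.12 against 0.0014 over all genes. The list was written with earlier results of these data known, and the 4 shared genes are the same measurements as above.

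Ankrd1 encodes an ankyrin repeat protein of muscle nuclei and sarcomeres and is among the strongest YAP targets in many cell types. Its probe, at chr19:36186809-36186868 on mm9, measured −3.77, −3.33, −3.06 and −3.39 in young pools 2, 3, 4 and 5 and −1.65, −1.91, −2.18 and −2.15 in aged pools 1, 2, 3 and 4. Every aged pool lay above every young pool, with a gap wider than the range within either group. Ankrd1 rose by 1.41 ± 0.17 (SE), 2.66-fold, with a limma adjusted p of 0.00421. The difference was 1.46 in slide row 1 and 1.37 in slide row 2, and 1.47 without aged pool 4. With normexp background correction it was 0.84, with an adjusted p of 0.00394, and it was 1.02 in the authors' log2 table. Cardiomyocytes also express Ankrd1, and 8 of the 9 cardiomyocyte markers tested had a lower mean in aged pools. The part of cardiomyocyte RNA in the values of Ankrd1 was not tested.

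Foxf2 encodes a forkhead factor of mesenchyme and pericytes. Its probe, at chr13:31723139-31723198 on mm9, measured −1.37, −1.88, −1.25 and −1.61 in young pools 2, 3, 4 and 5. In aged pools 1, 2, 3 and 4 it measured −0.51, −0.51, −0.54 and −0.41. The aged pools lay close together and all above the young pools. Foxf2 rose by 1.04 ± 0.13 (SE), 2.05-fold, with a limma adjusted p of 0.00544, by 1.29 in slide row 1 and 0.79 in slide row 2. None of the 9 smooth muscle and pericyte markers passed, and their median difference was −0.22. The part of such cells in the values of Foxf2 was not tested.

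Nt5e, the ecto-nucleotidase CD73, had the most negative difference among the target genes, and is named here after its values were seen. It measured −0.47 to 0.27 in young and −0.84 to −0.26 in aged pools, with young pool 5 and aged pool 2 among the values of the other group. The difference was −0.68 with an adjusted p of 0.114. Without young pool 5 it was −0.84 with an adjusted p of 0.0361, past the threshold.

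**Figure D4:**
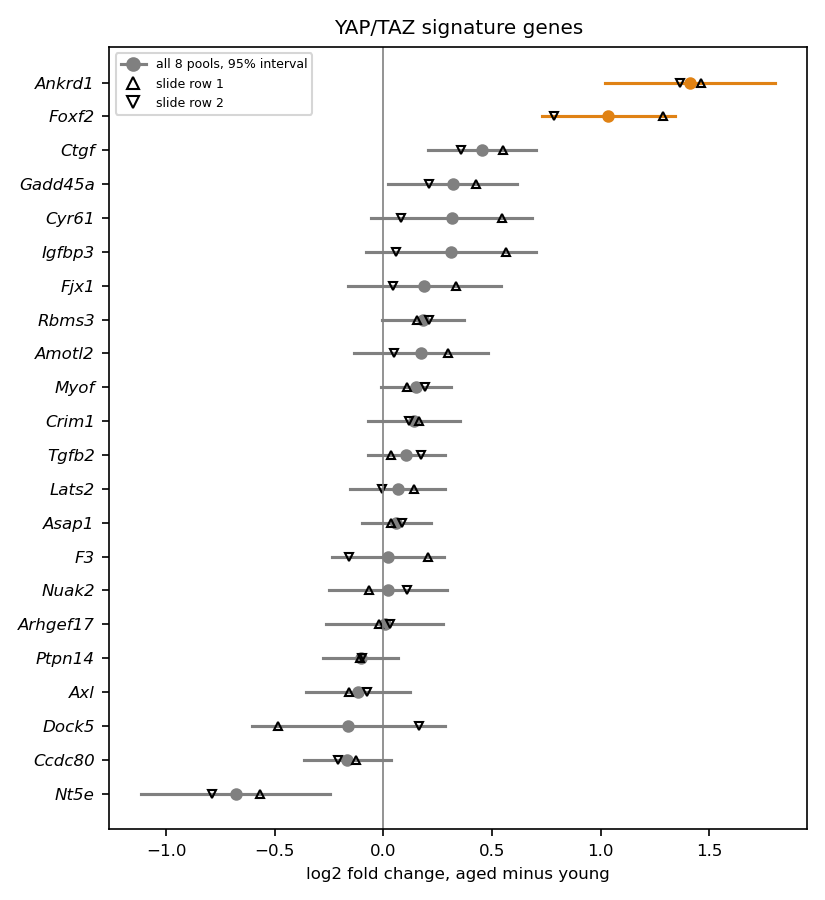
Log2 fold change, aged minus young (x axis), of the 22 YAP and TAZ target genes, with the 95% interval of limma (lines) and the difference within each slide row (triangles up, row 1; down, row 2). Ankrd1 and Foxf2, in orange, passed at an adjusted p under 0.05, and the other 20 genes, in grey, did not.

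Upstream of YAP, 23 of 24 Hippo kinases and regulators were tested, and 0 passed in either direction. Their median difference was −0.04, and 3 had an unadjusted limma p under 0.05, a value that 14.2% of all genes tested lay under. The 2 largest differences were those of Amot, with −0.28 and an adjusted p of 0.392, and of the atypical cadherin Fat4, with −0.28 and an adjusted p of 0.335. Amot measured 0.55 to 0.80 in young and 0.07 to 0.68 in aged pools, lowest in aged pool 4. Of the TEAD factors and cofactors 7 of 10 were tested and 0 passed, with a median difference of −0.02 and 1 gene at an unadjusted p under 0.05. The largest differences were 0.20 for the cofactor Vgll3, with an adjusted p of 0.535, and −0.20 for Tead2, with an adjusted p of 0.343. Probes of Tead4, Vgll1 and Vgll2 did not pass the filter on dim probes.

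Among the receptors of CCN proteins, which are mostly integrins, syndecan and LRP receptors, 12 of 12 were tested and 0 passed, also at an unadjusted p under 0.05. Their median difference was −0.05, and the 2 largest were −0.18 for Itga5 and −0.16 for Itgb5. Of 12 genes for TGF-β ligands, receptors and their response, 0 passed, with a median difference of 0.0078. The receptor gene Tgfbr2 lay at 5.03 to 5.34 in young and 5.43 to 5.59 in aged pools, which did not overlap, with a difference of 0.27 and an adjusted p of 0.188.

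The Wnt targets and the targets of serum response factor each had 1 gene that passed, where 2.36% of all genes rose and 0.792% fell. Of 7 Wnt target genes tested (of 11), Nkd2, an inhibitor of Wnt signalling, rose by 0.44 ± 0.08 (SE) with a limma adjusted p of 0.0284, from 2.36 to 2.58 in young to 2.83 to 3.04 in aged pools, and 0 fell. Its other probe differed by 0.89. The call of Nkd2 was lost in 11 of 23 alternatives, with adjusted p values of up to 0.332, 6 of them fits that left out 1 pool, and its mean over both probes differed by 0.67. Of 12 targets of serum response factor and its cofactor MRTF, Myl9, a myosin light chain of contractile cells, fell by 0.68 with an adjusted p of 0.0429 and 0 rose. Myl9 measured 3.67 to 3.93 in young and 2.81 to 3.39 in aged pools, and its call was lost in 13 of 23 alternatives, with adjusted p values of up to 0.281, 7 of them fits that left out 1 pool. Its adjusted p was 0.0642 with slide row as a block. The difference of Myl9 was −0.57 without aged pool 4, its lowest pool. The median difference of these 12 genes was −0.13.

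**Figure D5:**
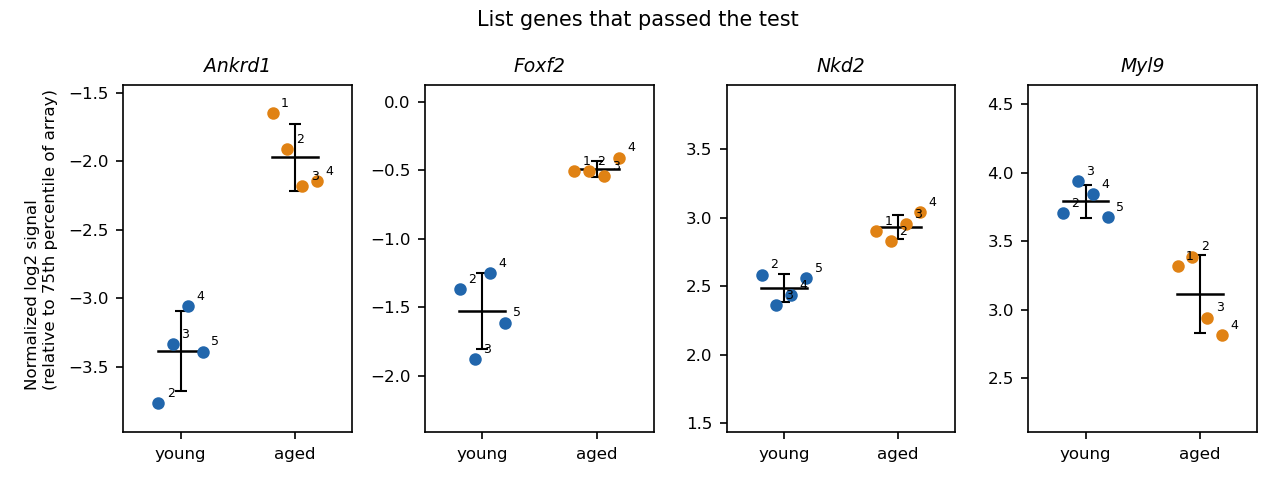
Normalized log2 signal (y axis, relative to each array's upper quartile) of Ankrd1, Foxf2, Nkd2 and Myl9, the genes of the pathway lists that passed, in each young (blue) and aged (orange) pool, with pool numbers, group means (horizontal lines) and SD (bars, n = 4); all panels span the same range of log2 units. The aged pools of Ankrd1, Foxf2 and Nkd2 all lie above the young pools, and those of Myl9 below.

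For each of the 10 genes, the genes with the most alike pattern were taken as those with the highest Pearson r over the 8 arrays among 15106 genes with a current symbol. Being the highest of so many, these values describe the arrays and carry no p. For Ctgf they were 2610524H06Rik (r = 0.98), the adhesion molecule Vcam1 (0.98) and the cytokine Il34 (0.97). Il34 passed the test itself, with a difference of 1.03 and an adjusted p of 0.0210. For Cyr61 they were Steap3, Tspan4 and Wfdc17, with r of 0.98, 0.98 and 0.97, and none of these 3 passed.

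Nov was most like Dars, Usp46 and Lrch2 (0.97, 0.96 and 0.96), all with lower means in aged cMSCs and none past the threshold. Wisp1 was most like Map4k5, Dynlt3 and Pla1a (0.98 each), and Wisp2 like Gm11476, Gm38525 and the circadian repressor Bhlhe41 (0.98, 0.98 and 0.97). Amotl2 was most like Gm4285, Slc10a6 and Gcg (0.99, 0.98 and 0.98). The genes most like the other members had r of 0.96 to 0.98. They were Cfap36, Impa2 and Sh3tc2 for Yap1, Etnk1, Ndufa10 and Stil for Wwtr1, Trmt11, Zxda and Prdm8 for Tead1, and Gxylt1 and Cdkn2d for Lats2.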

How the data were processed

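The authors deposited scanner output of 8 arrays, intensity values from Agilent Feature Extraction 10.10.1.1 with background subtracted and no scaling between arrays. The deposited series table holds quantile-normalized log2 values and served as an alternative. Control and outlier spots were left out, and intensities were scaled to each array's upper quartile, set to log2 and averaged over a probe's spots. A probe entered when every array of 1 group or both flagged it well above background, and the brightest stood for its gene, leaving 20211 genes. For 12 of these genes, none of them named here, 1 or more arrays had no value. Of 56605 probes, 33889 were named through accessions in a RefSeq table of GRCm38.p6, 9462 carried a current symbol and 13254 kept the array's name, as did the CCN genes. Probe positions follow the scanner files (mm9), and no exon annotation of that build was used.

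Groups came from the sample titles. Pools were compared by limma (version 3.58.1, R 4.3.3) with its functions lmFit and eBayes. Degrees of freedom were 6 residual and 2.53 prior, adjustment was by Benjamini-Hochberg, and the fit was tested on simulated data. There it recovered 24% of log2 changes of 0.5, 78.8% of those of 1 and 99.2% of those of 2, with 6.15% false calls. Intervals are not adjusted. Exact permutation tests were two-sided over all 70 assignments. Nothing says that pools of a group came from separate litters or days, so p values measure the spread between these pools. Summaries used pandas 2.3.3 and numpy 2.4.6.

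The members and lists were chosen with earlier results of these data known. Genes named are the members and Wisp3, from each pathway list at most 4 genes that passed, by size of change, or the top 2 if none passed, and the 3 most alike genes of each member, apart from items not reported here. Alternatives were quantile, cyclic loess and median scaling, normexp with an offset of 50, other filters and probe rules, and blocks for pool number, pool code and slide row. Further alternatives were limma's trend with robust fitting, weights for arrays, an unpaired Student's t-test, the authors' table and leaving out each pool. Testing probes in place of genes was added after seeing the data.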

Additional observations from a re-analysis of the deposited data

Results flagged for a closer look

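Over the 24 genes examined (the members and the list genes named by the rule), 2 of 48 groups of 4 pools held a pool far from the others by Dixon's test, which chance gives in about 1 in 20 groups. Cyr61 in aged pool 4 measured 5.49, where the next aged pool measured 4.92, a gap of 0.946 of the group's range. Wwtr1 in young pool 3 measured 5.05, where the next young pool measured 4.94, a gap of 0.843 of the range.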

How the results depend on the processing

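The number of members that rose was 0 in every alternative except limma's trend and robust options, which gave 1, Ctgf, and the number that fell was 0 in all. The number of target genes that rose was 2 in every alternative except the replicate block of pool numbers, which gave 0, and limma's trend and robust options, which gave 3 with Ctgf, and the number that fell was 0 except with array weights, which gave 1, and over the fits that left out 1 pool, which gave 0 to 1, Nt5e in both cases. Whether same-numbered pools were handled together is not stated, and 3 correlations cannot settle it. Deviations of same-numbered pools correlated at 0.18, −0.17 and −0.27 for numbers 2, 3 and 4, and the block left 14 genes higher and 2 lower over all genes against 477 and 160 without it, and it rests on the 3 numbers that both groups have. Under that block Ankrd1 and Foxf2 differed by 1.31 and 1.01 with adjusted p values of 0.174 and 0.150. Directions turned for Yap1, with 0.0062 under the replicate block, 0.031 with array weights and −0.070 to 0.041 when 1 pool was left out, for Wwtr1, with −0.033 to 0.014 when 1 pool was left out, and for Tead1, with −0.052 to 0.18. Of 552 values of 24 genes under 23 alternatives, 518 kept direction and call, 26 lost the call, 1 gained it and 7 turned. Cyr61 ranged from 0.17 to 0.37, Ctgf from 0.38 to 0.52 with adjusted p values of 0.0254 to 0.341, and Nov from −0.44 to −0.30 with adjusted p values of 0.0519 to 0.449. The Wisp2 range was 0.43 to 0.78 and that of Wisp1 0.34 to 0.65, Ankrd1 ranged from 0.84 to 1.54, Foxf2 from 0.82 to 1.13, Lats2 from 0.0067 to 0.13, Amotl2 from 0.037 to 0.24 and Tead1 from −0.052 to 0.19. The causes of these changes were not tested.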
